A study of Mus musculus with 3 samples.

Results

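Endothelial cells line the blood vessels. In a droplet single-cell RNA series of mouse non-small cell lung cancer they were taken here as cells that passed the filters (at least 500 UMIs, at least 200 genes and at most 20% mitochondrial UMIs), held at least 3 UMIs summed over Cdh5, Kdr, Cldn5, Egfl7 and Tie1, and had no UMI of the leukocyte gene Ptprc, of Cd3e or Cd3d, or of Cd79a or Ms4a1, and at most 1 of Hmga2 and Rhox5. A UMI (unique molecular identifier) counts 1 captured transcript. The rule found 105 endothelial cells among 29513 cells: 30 in the AI-Exo library, 59 in the PD-L1 library and 16 in the PBS library. The cells were thus selected on measured UMIs of these genes, whose own levels are a description only. The series asks, by its title and design text, how cells of this tumour differ after treatment with exosomes that inhibit autophagy.

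There was 1 library per group, so no comparison below could be tested or checked in a replicate. The labels give the group names AI-Exo, PD-L1 and PBS and do not spell them out. Strain, age, sex, tumour model, dose, time, number of animals and any sorting of cells are not stated by them. "Higher" and "lower" refer to the measured ratio of 2 libraries, and 95% intervals, in brackets, cover counting error only.

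The lung capillary bed holds at least a pair of endothelial types: general capillary cells, which carry Gpihbp1, the anchor of lipoprotein lipase, and Plvap, a component of the diaphragms of caveolae, and aerocytes, thin cells of the gas exchange surface that carry carbonic anhydrase Car4 and the endothelin receptor Ednrb. Endothelial cells also respond to interferons. Interferon gamma acts through promoter sites named GAS and, with the IRF factors, through sites named ISRE, and it induces guanylate-binding proteins (Gbp genes), immunity-related GTPases (Igtp, Irgm1, Irgm2, Iigp1), antigen presentation genes and Cd274, which encodes PD-L1, the ligand of the T cell receptor PD-1. Inflammatory signals through NF-kappaB raise the leukocyte adhesion molecules Sele, Selp, Icam1 and Vcam1 on venous endothelium.

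Depth and purity were as follows. The endothelial cells held 132207 UMIs in AI-Exo, 256537 in PD-L1 and 95646 in PBS, with medians of 3364.5 UMIs and 1812 genes per cell in AI-Exo, 3130 UMIs and 1583 genes in PD-L1, and 3339.5 UMIs and 1822 genes in PBS. The UMIs were unevenly spread: the 2 deepest cells held 24.9% of them in AI-Exo, 21.7% in PD-L1 and 46.3% in PBS. Sums over the PBS cells therefore rest to a large part on 2 cells. The libraries shared between 23 and 33 cell barcodes in each pair, and no endothelial cell was among them. Scrublet scores above 0.15, used as a sign of doublets, were found in 2 AI-Exo, 3 PD-L1 and 0 PBS endothelial cells. Genes abundant in free RNA and low in these cells bound free RNA at 2.69% of the UMIs in AI-Exo and 2.46% in PBS. The limiting gene was S100a9 in both. In PD-L1 the value was 1.61%, but its limiting gene was Ptprc, which the rule required to be absent, so it is no bound.

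The label was checked against 30 pan-endothelial genes that the rule did not use. Of these, 29 stood at 20 CPM or more (a gene's UMIs per 1000000 UMIs of the summed cells) and at least 2-fold above all other cells. The exception was Fli1, a transcription factor that leukocytes also carry, with 256 CPM in the endothelial cells and 248.9 CPM in the rest. Ramp2, a partner of the adrenomedullin receptor, reached 1965 CPM against 3.83 CPM, and Epas1, which encodes the hypoxia factor HIF-2 alpha, had a UMI in 104 of the 105 cells. The 30 genes made up a median of 33.4 UMIs per 1000 in AI-Exo cells, 35.6 in PD-L1 cells and 35.1 in PBS cells. Markers of other cell types were low in sum. Epithelial markers (10 genes) summed to 83.2 CPM in AI-Exo, 58.5 in PD-L1 and 73.2 in PBS, and lymphoid markers (8 genes) to 53.0 CPM in AI-Exo, 46.8 in PD-L1 and 104.6 in PBS. The 4 mesothelial markers had no UMI. Platelet markers (7 genes) had 3 UMIs in AI-Exo, 14 in PD-L1 and 5 in PBS, and the 5 erythroid and 4 tumour-like markers had at most 3 UMIs in any library. Myeloid markers (8 genes) stood higher in PD-L1, at 1076 CPM, than in AI-Exo, at 181.5 CPM, and in PBS, at 94.1 CPM. Of the PD-L1 myeloid UMIs, 45.3% lay in a single cell, which held 49 of the library's 50 UMIs of the macrophage gene C1qa, only 4 UMIs of the rule's genes and 17 of the pan-endothelial list. Another single PD-L1 cell held 116 of the 276 myeloid UMIs and 67 of the 83 UMIs of S100a9, a neutrophil gene. It had 5 UMIs of the rule's genes and 22 of the pan-endothelial list. Fibroblast and mural markers (12 genes) summed to 642.9 CPM in AI-Exo, 202.7 in PD-L1 and 31.4 in PBS, and 64 of the 65 AI-Exo UMIs of the pericyte gene Rgs5 lay in 1 cell. The part of these cells in the results below was not tested, except where values without them are given.

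**Figure D1:**
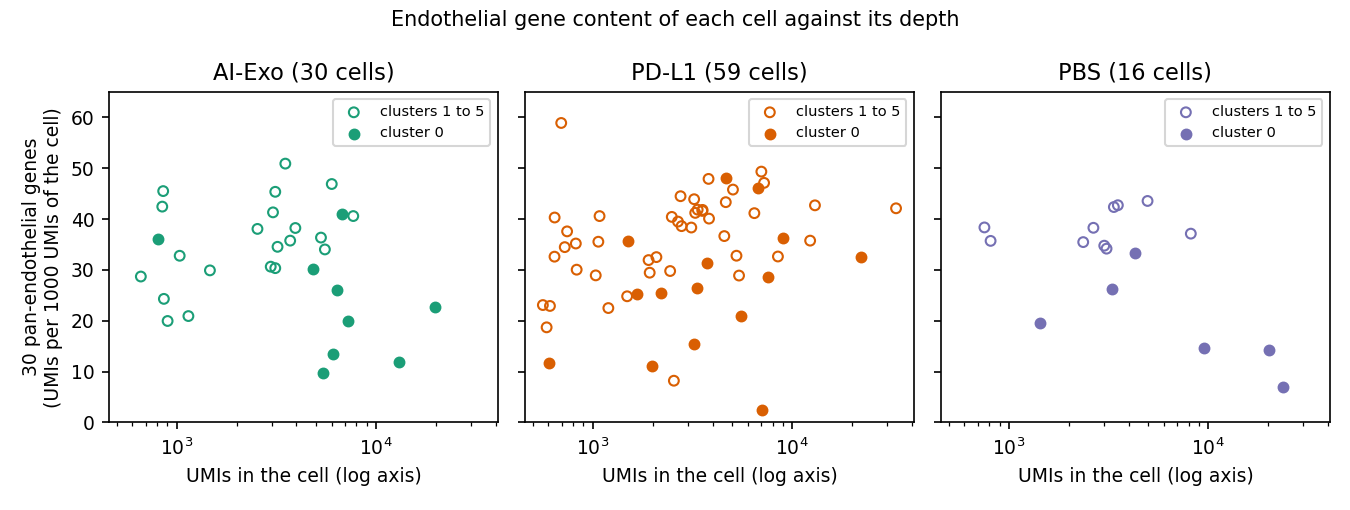
Each point is 1 endothelial cell. The x axis gives its UMIs on a log axis and the y axis the UMIs of 30 pan-endothelial genes per 1000 UMIs of the cell, with filled points for cluster 0. The 3 libraries overlap, with medians of 33.4 in AI-Exo, 35.6 in PD-L1 and 35.1 in PBS. The deepest cell is filled in AI-Exo and PBS but not in PD-L1. Filled cells tend to lie lower on the y axis, with overlap, and some filled PD-L1 cells lie above that library's median.

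Endothelial cells were 0.287% of the AI-Exo cells [0.194, 0.409], 0.608% of the PD-L1 cells [0.463, 0.784] and 0.171% of the PBS cells [0.0977, 0.277], with exact Clopper-Pearson intervals. The PD-L1 share was 3.56 times the PBS share [2.02, 6.63] and the AI-Exo share 1.68 times the PBS share [0.886, 3.30]. The AI-Exo share was 0.472 of the PD-L1 share [0.293, 0.744]. The order PD-L1, AI-Exo, PBS held in all 6 versions of the rule and filters, with 51 PD-L1, 30 AI-Exo and 13 PBS cells when every cell was first thinned to 1000 UMIs. How well endothelial cells came out of the tissue in each preparation cannot be told apart from how many there were. The rule's conditions on leukocyte, lymphocyte and tumour genes left out cells of all 3 libraries: 69 AI-Exo, 96 PD-L1 and 33 PBS cells reached 3 endothelial UMIs, and Ptprc alone left out 15 AI-Exo, 13 PD-L1 and 4 PBS cells of these. Near the threshold lay 2 AI-Exo, 4 PD-L1 and 0 PBS cells with exactly 3 endothelial UMIs, and 4 AI-Exo, 8 PD-L1 and 2 PBS cells had 2 and were left out.

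The cells were grouped to describe how they differed among themselves. Clustering on 1000 variable genes gave 6 clusters, and the libraries were not integrated. Cluster 0 held 30 cells (9 AI-Exo, 15 PD-L1 and 6 PBS) and was led by Mgp, Fabp4, Igfbp3, Cxcl10 and Selp. It carried markers of several classes (6 venous, 3 arterial, 5 myeloid and 4 fibroblast and mural markers at 2-fold or more over the other endothelial cells) and stays unnamed. Its cells were deep, with a median of 5488.5 UMIs, so that it held 53.4% of the endothelial UMIs in AI-Exo, 31.7% in PD-L1 and 65.7% in PBS. Cluster 3, with 14 cells (4 AI-Exo, 9 PD-L1 and 1 PBS), carried 6 of the 7 aerocyte markers and is called aerocyte-like, a name of the cluster and not of each cell. It was mixed: general capillary markers summed to 4534 CPM in it, against 4010 CPM of aerocyte markers. Its deepest cell, a PD-L1 cell of 33355 UMIs, held 309 UMIs of general capillary and 18 of aerocyte markers. Cluster 1, with 20 cells (8 AI-Exo, 8 PD-L1 and 4 PBS), was led by Glp1r and Gpihbp1, carried 3 of the 6 general capillary markers and is called general capillary-like. Cluster 2 held 13 cells, all of them from PD-L1, and was led by Cdk19, Epha4, Hes1 and Mndal. With 1 library per group, a cluster made of 1 library may be that library and not a kind of cell. Cluster 4 (19 cells) and cluster 5 (9 cells, led by mitochondrial genes) had cells of all 3 libraries and stay unnamed. At a resolution of 0.5 the cells formed 3 clusters, and an aerocyte-like one of 10 cells remained, with 4 AI-Exo, 6 PD-L1 and 0 PBS cells. Aerocyte markers summed to 7454 CPM in it and general capillary markers to 365.4 CPM. Lymphatic identity was not seen: Prox1, the factor that defines lymphatic endothelium, had no UMI in any of the 105 cells, which allows up to 22.7 CPM in AI-Exo, 11.7 in PD-L1 and 31.4 in PBS. Lyve1, which lymphatic and some blood endothelium carry, had 43 UMIs in 13 AI-Exo cells, 40 in 18 PD-L1 cells and 7 in 3 PBS cells.

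**Figure D2:**
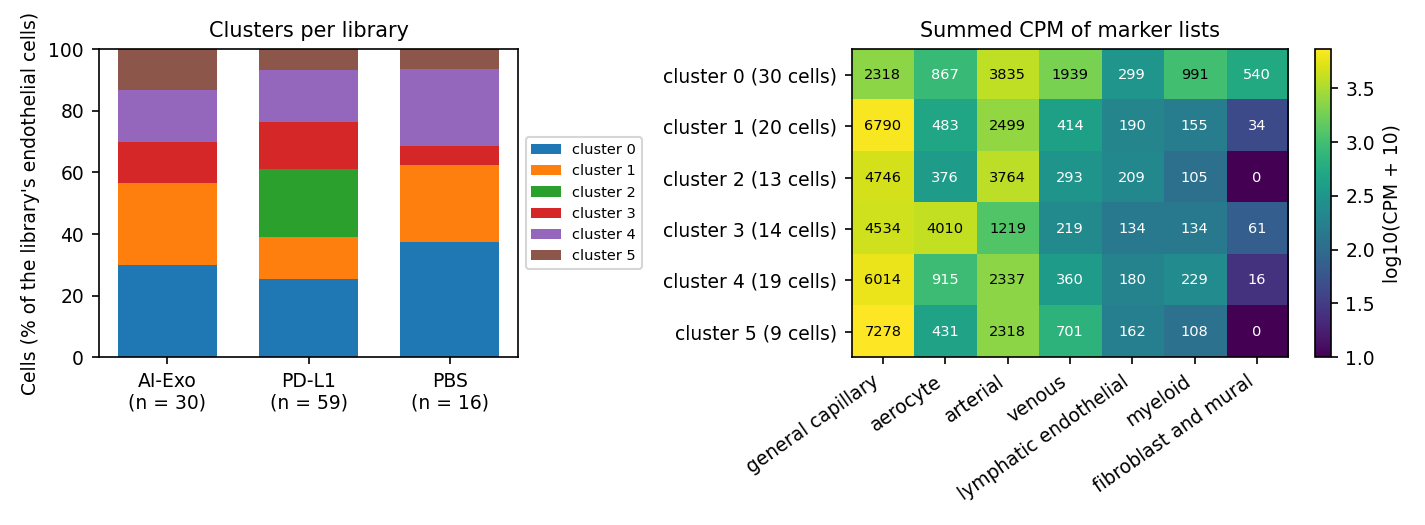
The left panel stacks the 6 clusters as percent of each library's endothelial cells (30 AI-Exo, 59 PD-L1 and 16 PBS cells). The right panel gives the summed CPM of 7 marker lists in each cluster on a log10 colour scale: aerocyte markers peak in cluster 3 (4010 CPM), general capillary markers in clusters 1 and 5, and venous, myeloid and mural markers in cluster 0.

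Levels were then compared between libraries on UMIs summed per library. A gene counted as measured in a pair with at least 30 UMIs over both libraries and 50 CPM in the higher, and as higher or lower at 2-fold on the scale of log2(CPM + 10), which pulls low genes toward 0. In PD-L1 over PBS 2484 genes were measured, of which 16.4% were higher and 7.93% lower. In AI-Exo over PBS, of 1492 genes, 9.85% were higher and 7.71% lower, and in AI-Exo over PD-L1, of 2755 genes, 3.56% were higher and 5.48% lower. The median log2 ratio of all measured genes was 0.11 in AI-Exo over PBS, 0.21 in PD-L1 over PBS and -0.04 in AI-Exo over PD-L1. A minimum of 30 UMIs, were all of them in 1 library, is 226.9 CPM in AI-Exo, 116.9 in PD-L1 and 313.7 in PBS, so low genes entered more easily where PD-L1 was the higher library. The comparisons with PBS share the same 16 PBS cells. Because cluster 0 holds most PBS UMIs, the main list medians are also given without it, where enough genes stay measured.

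Most interferon gamma response genes were higher in PD-L1 than in PBS. Of the 22 genes of this list, 17 were measured and 14 were higher, beside the background of 16.4%, with a median log2 ratio of 2.58. They included Gbp2, Gbp3, Gbp4, Gbp6, Gbp7, Gbp8, Gbp9, Igtp, Iigp1, Irgm1, Irgm2, Tgtp2 and Cd274. The factor Irf1 and Gbp5 did not reach 2-fold, and the T cell attracting chemokine Cxcl10 was lower. Genes could reach the minimum of UMIs through PD-L1 alone, as Igtp did, so the count and the median favour genes high there.

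Igtp (ENSMUSG00000078853) encodes an immunity-related GTPase that acts against vacuolar pathogens. It had 13 UMIs in 8 of 30 AI-Exo cells, 107 UMIs in 33 of 59 PD-L1 cells and 0 UMIs in the 16 PBS cells. Its level was 98.3 CPM in AI-Exo [52.4, 168], 417.1 CPM in PD-L1 [341.8, 504] and 0 CPM in PBS, where a count of 0 allows up to 31.4 CPM (3 counts of the library's sum). Its measured level was 13.3 times this PBS floor in PD-L1 and 3.13 times in AI-Exo. These folds, and those against the PBS floor below, leave out the counting error of the higher level. The highest single cell held 21 of the 107 PD-L1 UMIs, so the level was spread over many cells.

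Gbp7 (ENSMUSG00000040253), a guanylate-binding protein of cell-autonomous defence, had 37 UMIs in 15 AI-Exo cells, 207 UMIs in 37 PD-L1 cells and 3 UMIs in 3 PBS cells. That is 279.9 CPM in AI-Exo [197.1, 385.8], 806.9 CPM in PD-L1 [700.7, 924.6] and 31.4 CPM in PBS [6.47, 91.7]. The log2 ratio to PBS was 2.81 in AI-Exo [1.50, 5.50] and 4.30 in PD-L1 [3.12, 6.97], where the intervals of ratios here and below are those of the ratio without the added 10 CPM. Outside cluster 0 the levels were 405.9 CPM in AI-Exo, 946.8 in PD-L1 and 91.4 in PBS. In cells thinned to 1000 UMIs, Gbp7 had a UMI in 16.7% of AI-Exo, 41.7% of PD-L1 and 7.14% of PBS cells, against 2.0% of AI-Exo, 2.2% of PD-L1 and 3.6% of PBS B cells thinned alike (500 per library). Before thinning those B cells had medians of 4007 UMIs in AI-Exo, 3795 in PD-L1 and 3424 in PBS, and thinning left out 6 AI-Exo, 11 PD-L1 and 2 PBS endothelial cells that were shallower.

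Gbp6, of the same family, had 9 UMIs in AI-Exo, 96 in PD-L1 and 1 in PBS, a log2 ratio of 4.23 in PD-L1 over PBS [2.65, 10.48]. Cd274 had 5 UMIs in 3 AI-Exo cells, 63 in 15 PD-L1 cells and 4 in 2 PBS cells, or 37.8 CPM in AI-Exo, 245.6 in PD-L1 and 41.8 in PBS. Its log2 ratio was 2.30 in PD-L1 over PBS [1.13, 4.47] and -2.42 in AI-Exo over PD-L1, and the intervals of AI-Exo [12.3, 88.3] and PBS [11.4, 107] overlap. Cd274 is also abundant in leukocytes: 8.33% of AI-Exo, 16.7% of PD-L1 and 7.14% of PBS endothelial cells thinned to 1000 UMIs had a UMI, against 28.6%, 28.0% and 29.0% of the thinned B cells of AI-Exo, PD-L1 and PBS. Free RNA accounts for at most 8.47 CPM of it in AI-Exo and 5.57 in PBS, with no bound for PD-L1.

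The promoters of Igtp and Gbp7 are shown because both hold the sites named above. The windows are RefSeq's, on GRCm38.p6, 300 bases across the annotated start, plus strand, with matches to ISRE (GAAA, NN and GAAA in a row) or GAS (TTCNNNGAA), searched on both strands, in capitals.
Igtp, chr11:58199306-58199605: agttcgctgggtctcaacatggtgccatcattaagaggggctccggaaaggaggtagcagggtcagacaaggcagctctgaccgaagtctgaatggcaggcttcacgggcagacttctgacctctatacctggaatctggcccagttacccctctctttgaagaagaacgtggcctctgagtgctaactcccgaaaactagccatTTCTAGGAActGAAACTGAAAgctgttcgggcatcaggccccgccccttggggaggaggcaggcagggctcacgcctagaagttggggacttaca
Gbp7, chr3:142530086-142530385: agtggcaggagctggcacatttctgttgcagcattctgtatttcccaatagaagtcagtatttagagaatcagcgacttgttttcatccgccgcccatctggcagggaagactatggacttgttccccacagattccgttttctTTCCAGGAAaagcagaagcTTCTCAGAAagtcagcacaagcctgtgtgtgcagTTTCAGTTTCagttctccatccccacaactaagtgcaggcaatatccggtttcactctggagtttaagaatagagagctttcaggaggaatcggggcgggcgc

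In Igtp the GAS match lies just before the ISRE match, without overlap. In Gbp7 there are GAS matches at 2 places and an ISRE match on the minus strand. GAS reads the same on both strands, so each place counts once per strand. ISRE was found in 11 of the 15 interferon gamma genes with a promoter entry (73.3%), against 3.99% of all 27025 genes with one, and GAS in 8 of 15 (53.3%), against 9.55%. Of type I interferon genes, 14 of 23 held ISRE (60.9%) and 5 of 23 GAS (21.7%). Of MHC class I genes, 4 of 14 held ISRE (28.6%) and 1 of 14 GAS (7.14%). The windows of Cd274, Tap1, H2-Aa and Emp2 held neither. A match is a description of these letters and not of binding.

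Across cells, the interferon gamma genes made up a median of 2.04 UMIs per 1000 in AI-Exo cells (0 to 15.2), 5.30 in PD-L1 cells (0 to 29.9) and 1.32 in PBS cells (0 to 8.43). Outside cluster 0 the medians were 1.88 in AI-Exo, 5.74 in PD-L1 and 1.10 in PBS, and 10 of 21 AI-Exo and 32 of 44 PD-L1 cells lay above the highest of the 10 PBS cells, at 2.37. Summed, the list stood at 3638 CPM in AI-Exo, 6775 in PD-L1 and 3252 in PBS over all cells, but at 2663 CPM in AI-Exo, 7603 in PD-L1 and 975 in PBS outside cluster 0. Cxcl10 is part of these sums: 81 of 83 AI-Exo UMIs, 31 of 33 PD-L1 UMIs and 160 of 163 PBS UMIs of it lay in 1 cluster 0 cell of each library. In PBS cluster 0 the list held 279 UMIs, and 162 of them were Cxcl10. Its part in the wider gap outside cluster 0 was not tested. All 5 PD-L1 clusters outside cluster 0 had medians above the 3 PBS clusters with more than 1 cell. The PD-L1 medians were 3.60 in cluster 1, 4.47 in cluster 2, 8.50 in mixed cluster 3, 4.20 in cluster 4 and 13.0 in cluster 5. In PBS the medians were 2.01 in cluster 0, 0.92 in cluster 1 and 1.15 in cluster 4.

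**Figure D3:**
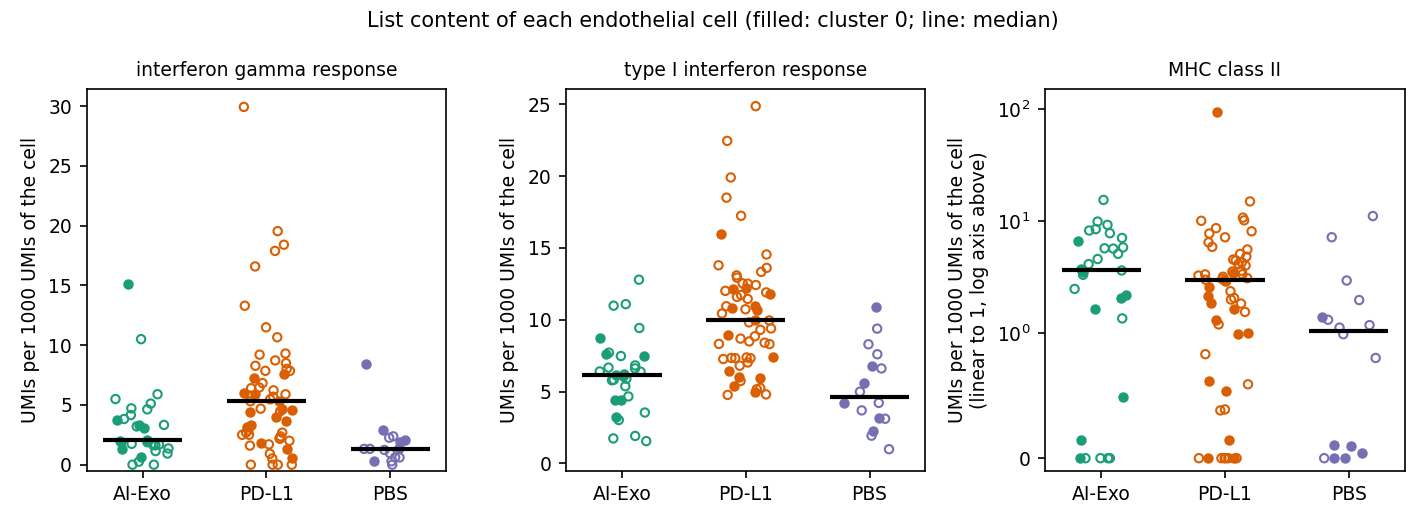
Each point is 1 endothelial cell, placed by library, with the UMIs of the list per 1000 UMIs of the cell on the y axis (for MHC class II linear to 1 and logarithmic above). Filled points are cluster 0 and lines are medians: 2.04, 5.30 and 1.32 for interferon gamma genes and 6.19, 9.98 and 4.62 for type I interferon genes in AI-Exo, PD-L1 and PBS.

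Type I interferon genes were also mostly higher in PD-L1 than in PBS. Of 29 genes, 21 were measured in PD-L1 over PBS, 18 were higher and 0 lower, beside backgrounds of 16.4% and 7.93%, with a median log2 ratio of 1.48, and 2.31 outside cluster 0. In AI-Exo over PBS 6 were measured, 2 were higher (Parp14 and Slfn5) and 1 lower (Isg15), beside backgrounds of 9.85% and 7.71%, with a median of 0.41, and 0.26 outside cluster 0. The medians of the 2 comparisons cover different sets of genes, since genes high in PD-L1 could reach the minimum of UMIs through PD-L1 alone. Ifit3, an antiviral effector that shares sequence with Ifit3b and is uncertain for that reason, had 9 UMIs in 5 AI-Exo cells, 59 in 24 PD-L1 cells and 2 in 2 PBS cells, a log2 ratio of 2.96 in PD-L1 over PBS [1.54, 6.54]. Isg15, a ubiquitin-like protein, had 8 UMIs in 4 AI-Exo cells, 58 in 30 PD-L1 cells and 26 in 3 PBS cells. Its ratio to PBS was -2.00 in AI-Exo and -0.26 in PD-L1 over all cells, but -0.63 in AI-Exo and 2.41 in PD-L1 outside cluster 0, where PBS held 1 of its UMIs. Ifitm3, which blocks viral entry, was high in all libraries, at 2209 CPM in AI-Exo, 2807 in PD-L1 and 2143 in PBS. Leukocytes carry these genes as well: in all other cells the type I list stood at 3193 CPM in AI-Exo, 5512 in PD-L1 and 3437 in PBS, also highest in PD-L1. There the interferon gamma list stood at 1877 CPM in AI-Exo, 1697 in PD-L1 and 1425 in PBS.

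Part of the antigen presentation genes were higher in AI-Exo and in PD-L1 than in PBS. Of 16 MHC class I genes, 4 of 14 measured were higher in AI-Exo (Tap1, Tapbp, Psmb8 and Psmb9) with a median log2 ratio of 0.77, and 8 of 16 were higher in PD-L1 with a median of 1.05, beside backgrounds of 9.85% in AI-Exo and 16.4% in PD-L1. None was lower in either. Tap1, a subunit of the peptide transporter, had 234.5 CPM in AI-Exo, 331.3 CPM in PD-L1 and 62.7 CPM in PBS, with log2 ratios to PBS of 1.75 in AI-Exo and 2.23 in PD-L1. B2m, the light chain of all class I molecules, had 3805 CPM in AI-Exo, 3750 in PD-L1 and 2133 in PBS, with log2 ratios to PBS of 0.83 in AI-Exo and 0.81 in PD-L1 that do not reach 2-fold. Outside cluster 0 the class I medians were 0.54 in AI-Exo and 0.61 in PD-L1, so the difference was smaller there.

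MHC class II genes are induced in endothelium by interferon gamma through Ciita. All 4 measured members were higher in AI-Exo over PBS (median 1.79), beside a background of 9.85%. In PD-L1 over PBS all 7 measured members were higher (median 1.86), beside a background of 16.4%. Genes could reach the minimum of UMIs mostly through PD-L1, so this count and median favour genes high there. Ciita itself had 3 UMIs in AI-Exo, 27 in PD-L1 and 3 in PBS, or 22.7 CPM in AI-Exo, 105.2 in PD-L1 and 31.4 in PBS. Of its PD-L1 UMIs, 16 lay in 1 cell. H2-DMb1 had 26 UMIs in PD-L1 and 4 in PBS. Cd74, the invariant chain, had 239 UMIs in 24 of 30 AI-Exo cells, 604 in 37 of 59 PD-L1 cells and 40 in 8 of 16 PBS cells, or 1808 CPM in AI-Exo [1586, 2052], 2354 CPM in PD-L1 [2170, 2550] and 418.2 CPM in PBS [298.8, 569.5]. Free RNA accounts for at most 53.9 CPM of it in AI-Exo and 34.4 in PBS, with no bound for PD-L1. Summed, the class II list stood at 3827 CPM in AI-Exo, 5559 in PD-L1 and 1119 in PBS endothelial cells. In all other cells it stood higher, at 8624 CPM in AI-Exo, 7521 in PD-L1 and 7452 in PBS. Of the PD-L1 class II UMIs, 47.1% lay in the single cell with C1qa named above. Without that cell the PD-L1 median was 1.47. Outside cluster 0 the medians were 0.73 in AI-Exo and 0.22 in PD-L1, and H2-Aa, a class II alpha chain, had 746.8 CPM in AI-Exo, 627.4 in PD-L1 and 700.7 in PBS. The cluster 0 cells held 208 class II UMIs in AI-Exo, 802 in PD-L1 (672 of them in that cell) and 10 in PBS. Per cell, the class II median was 3.68 UMIs per 1000 in AI-Exo and 1.06 in PBS, with PD-L1 between them, and outside cluster 0 it was 5.11 in AI-Exo, 3.31 in PD-L1 and 1.25 in PBS. So the sums of single genes and the medians over cells gave different sizes of difference outside cluster 0.

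Of the 7 aerocyte genes, 4 were measured against PBS. In AI-Exo 1 was higher (Car4) and in PD-L1 2 were higher (Car4 and the transcription factor gene Tbx2), beside backgrounds of 9.85% and 16.4%. None was lower, and the medians were 0.86 in AI-Exo and 1.40 in PD-L1. Car4 had 36 UMIs in 9 AI-Exo cells, 106 in 19 PD-L1 cells and 4 in 4 PBS cells, with log2 ratios to PBS of 2.45 in AI-Exo [1.22, 4.65] and 3.03 in PD-L1 [1.91, 5.21]. Emp2, an epithelial membrane protein gene that lung aerocytes also carry, had 47 UMIs in 9 AI-Exo cells, 201 in 21 PD-L1 cells and 4 in 3 PBS cells, with ratios of 2.82 in AI-Exo [1.64, 5.02] and 3.94 in PD-L1 [2.85, 6.12]. Pmp22, of the same protein family, had ratios of 2.70 in AI-Exo and 2.97 in PD-L1. These genes were concentrated in few cells: the 2 highest PD-L1 cells held 56 and 50 of the 201 UMIs of Emp2. Their ratios to PBS outside cluster 0 were 2.94 in AI-Exo and 2.97 in PD-L1 for Car4, and 2.29 in AI-Exo and 2.85 in PD-L1 for Emp2. Only 1 PBS cell was in aerocyte-like cluster 3, and it held no UMI of the aerocyte list, so the number of such cells and the level in each cannot be told apart. Of the general capillary genes, 2 of 5 measured were higher in AI-Exo than in PBS (Kit and Glp1r) and 2 of 5 in PD-L1 (Kit and Sema3c), with 0 lower and medians of 0.50 in AI-Exo and 0.36 in PD-L1. Outside cluster 0 these medians were 0.41 in AI-Exo and -0.53 in PD-L1. Kit, a receptor tyrosine kinase gene, had 559.7 CPM in AI-Exo, 460 in PD-L1 and 209.1 in PBS. Gpihbp1 had 703.4 CPM in AI-Exo, 666.6 in PD-L1 and 627.3 in PBS, and Plvap 726.1 CPM in AI-Exo, 803.0 in PD-L1 and 752.8 in PBS. Their log2 ratios to PBS were 0.16 and -0.05 in AI-Exo and 0.09 for both genes in PD-L1. Sema3c, a secreted guidance cue that marks general capillary cells, was higher in PD-L1 at 2432 CPM, against 961.9 CPM in PBS (log2 ratio 1.33), and stood at 1362 CPM in AI-Exo (0.50). A single PD-L1 cell held 249 of the 624 PD-L1 UMIs of Sema3c. Without it the PD-L1 ratio was 0.80, and outside cluster 0 it was 0.32, both under 2-fold.

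**Figure D4:**
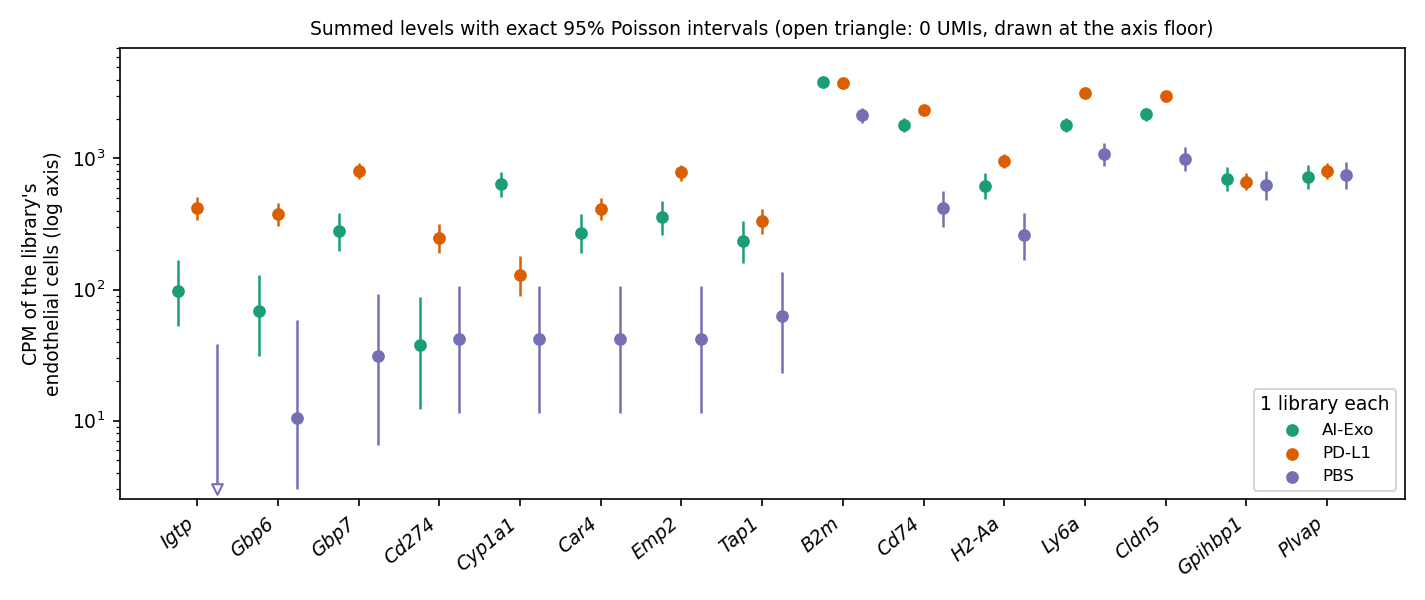
Points give the CPM of 15 genes in the summed endothelial cells of each library on a log axis, with exact 95% Poisson intervals of counting error. An open triangle marks 0 UMIs. Interferon gamma genes at the left are highest in PD-L1 (Igtp at 417.1 CPM, against 0 UMIs in PBS), Cyp1a1 is highest in AI-Exo (635.4 CPM), and Gpihbp1 and Plvap at the right overlap between libraries.

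Genes were ranked if they had a UMI in at least 5 cells and a level of at least 100 CPM in the higher library. The gene furthest above PBS in AI-Exo was then Cyp1a1 (ENSMUSG00000032315), which encodes a monooxygenase that the aryl hydrocarbon receptor induces and that lung endothelium carries. It had 84 UMIs in 18 of 30 AI-Exo cells, 33 in 10 of 59 PD-L1 cells and 4 in 3 of 16 PBS cells. Its level was 635.4 CPM in AI-Exo [506.8, 786.6], 128.6 CPM in PD-L1 [88.5, 180.7] and 41.8 CPM in PBS [11.4, 107]. The log2 ratio was 3.64 in AI-Exo over PBS [2.52, 5.83], 1.42 in PD-L1 over PBS [0.13, 3.58] and 2.22 in AI-Exo over PD-L1. The highest AI-Exo cell held 13 of the 84 UMIs, and outside cluster 0 the levels were 1055 CPM in AI-Exo, 136.9 in PD-L1 and 91.4 in PBS. No thinned B cell had a UMI, and free RNA accounts for at most 0.0209 CPM in AI-Exo. Other genes that the same receptor induces, were looked up after this value was seen. Tiparp had 98.3 CPM in AI-Exo, 128.6 in PD-L1 and 62.7 in PBS. Cyp1b1 had 1 UMI in all libraries together, and Ahrr had none. The receptor gene Ahr itself had 317.7 CPM in AI-Exo, 296.3 in PD-L1 and 261.4 in PBS.
The Cyp1a1 window of RefSeq on GRCm38.p6, plus strand, is shown with the core of the receptor's site (GCGTG, searched on both strands) in capitals. That core occurs in 35.2% of all genes with an entry and is no mark of this gene.
Cyp1a1, chr9:57697363-57697662: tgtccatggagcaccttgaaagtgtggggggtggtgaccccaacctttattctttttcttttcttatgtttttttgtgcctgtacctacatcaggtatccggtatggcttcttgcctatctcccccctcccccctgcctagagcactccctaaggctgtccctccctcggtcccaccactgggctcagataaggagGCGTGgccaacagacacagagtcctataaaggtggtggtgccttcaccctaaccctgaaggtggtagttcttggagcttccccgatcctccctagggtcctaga

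By the same rule, the other genes furthest above PBS in AI-Exo were Phlda1 (log2 ratio 3.34), Atp13a3 (3.01), Emp2, Gbp7, Pmp22, Car4 and the Notch target Hes1 (2.20). Phlda1 had 40 UMIs in 6 AI-Exo cells, against 2 UMIs in PBS. The AI-Exo cell with the Rgs5 UMIs held 33 of the 40, and 28 of the 43 of Hes1. Without it the ratios to PBS were 1.23 for Phlda1 and 0.98 for Hes1. Atp13a3, a polyamine transporter gene, had 65 UMIs in 5 AI-Exo cells, against 5 UMIs in PBS. Its highest AI-Exo cell held 50 of the 65, its ratio without that cell was 1.06, and it had no AI-Exo UMI outside cluster 0. Mgp, a matrix protein gene with UMIs in only 4 AI-Exo cells and so outside the rule, had a ratio of 4.07, with 127 of its 207 AI-Exo UMIs in 1 cell. Of the 7 interferon gamma genes measured in AI-Exo over PBS, 4 were higher, Gbp2, Gbp4 and Gbp7 among them, beside the background of 9.85%, Cxcl10 was lower, and the median was 1.61. This median covers fewer genes than the 17 measured in PD-L1 over PBS. Furthest below PBS in AI-Exo were Jak2 (-3.34), Hspa1b (-2.46), S100a6 (-2.42), Itga5 (-2.31), Cebpb (-2.08), Akap12 (-1.95), Insr (-1.93) and Hif1a (-1.88). Jak2, the kinase of the interferon gamma receptor, had 4 UMIs in AI-Exo, 16 in PD-L1 and 38 in PBS, of which 31 lay in the 2 deepest PBS cells. The same 2 cells held 162 of 187 PBS UMIs of the scaffold gene Akap12 and 52 of 61 of the hypoxia factor Hif1a. Without the PBS cell that held most of a gene's UMIs, the AI-Exo ratios were -0.45 for Hspa1b, -0.59 for Cebpb, -0.25 for Akap12, -0.24 for Hif1a, -2.35 for Jak2 and -1.04 for Itga5.

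In PD-L1, besides Igtp, Gbp7, Gbp6 and Emp2, the genes furthest above PBS were S100a9, Adgrg6, Ifi27l2a and Gucy1a1, each with 0 UMIs in PBS. Adgrg6, an adhesion receptor, had 57 UMIs in 8 PD-L1 cells, of which 4 UMIs lay outside cluster 0. Its level was 7.08 times the PBS floor. Ifi27l2a, an interferon-induced gene, had 36 UMIs in 11 PD-L1 cells, a level 4.47 times the PBS floor. The cell with C1qa held 19 of the 36, and without it the level was 2.17 times that floor. Gucy1a1, a subunit gene of the nitric oxide receptor, had 33 UMIs in 5 PD-L1 cells, of which 28 lay in 1 cell, and without that cell its level was under the floor of PBS. Of the 83 PD-L1 UMIs of S100a9, 16 lay outside its highest cell. Furthest below PBS were S100a6 (-3.65), Adamts9 (-2.97), Rell1 (-2.84), Hif1a (-2.82), Ccn1 (-2.63), Tmem252 (-2.49), Jak2 (-2.49) and Cavin3 (-2.37). The 2 deepest PBS cells held 78 of 105 UMIs of the calcium-binding protein gene S100a6, 56 of 68 of the protease gene Adamts9 and 90 of 130 of the matricellular gene Ccn1. Outside cluster 0 the PD-L1 ratios of Adamts9, Rell1, Ccn1, Tmem252 and Cavin3 were above 0. There the ratios were -0.88 for S100a6, -0.48 for Jak2 and -1.14 for Hif1a, with PBS UMIs of 2 for S100a6, 3 for Jak2 and 7 for Hif1a.

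Genes of activated venous endothelium followed single cells. Selp, the gene of P-selectin, had 16 UMIs in 3 AI-Exo cells, 0 in PD-L1 cells and 107 in 2 PBS cells. Sele had 21 UMIs in 2 AI-Exo cells, 0 in PD-L1 cells and 67 in 2 PBS cells. Icam1, the ligand of leukocyte integrins, had 40 UMIs in 12 AI-Exo cells, 49 in 18 PD-L1 cells and 124 in 4 PBS cells. The 2 deepest PBS cells held all of the Selp and Sele UMIs, 119 of the 124 Icam1 UMIs, all 84 of the neutrophil chemokine Cxcl1 and 31 of the 32 of Lrg1. Summed, the inflammatory activation list had 4 of 8 measured genes lower in AI-Exo and 5 of 8 lower in PD-L1 than in PBS, beside backgrounds of 7.71% and 7.93%, but per cell its medians were 1.09 UMIs per 1000 in AI-Exo, 1.08 in PD-L1 and 1.06 in PBS. Of the 420 PD-L1 UMIs of that list, 91 lay in the cell with most S100a9 UMIs. Immediate early and heat shock genes, which tissue dissociation can induce, stood at 19090 CPM in AI-Exo, 12620 in PD-L1 and 22410 in PBS, and 12 of 20 measured were lower in PD-L1 than in PBS (median -1.17, beside 7.93%). Outside cluster 0 the sums were 5715 CPM in AI-Exo, 7928 in PD-L1 and 5880 in PBS, and the PD-L1 median was 0.65. These lists moved with cluster 0, and their part in other differences was not tested.

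In AI-Exo over PD-L1 the interferon genes were lower in AI-Exo. Of 18 interferon gamma genes measured, 12 were lower, beside a background of 5.48%, 1 was higher (Cxcl10) and the median log2 ratio was -1.36. Of 22 type I genes, 12 were lower and 0 higher, with a median of -1.16. The medians outside cluster 0 were -1.49 for the interferon gamma list and -0.89 for the type I list. Here too, genes could reach the minimum of UMIs through PD-L1 alone. The genes furthest below PD-L1 were Ifi27l2a, Irgm1, Rtp4 and Cd274. Irgm1, an immunity-related GTPase, had 2 UMIs in 2 of 30 AI-Exo cells, 52 in 23 of 59 PD-L1 cells and 7 in 3 of 16 PBS cells, a ratio of -3.08 in AI-Exo over PD-L1. Rtp4, an interferon-induced chaperone, had 2 UMIs in 2 AI-Exo cells, 51 in 29 PD-L1 cells and 7 in 5 PBS cells, a ratio of -3.05. MHC class I genes did not differ by size here: none of 16 was higher or lower, beside 9.04% of all measured genes past 2-fold either way, with a median of -0.15. Furthest above PD-L1 in AI-Exo were Man1a (3.13), Egr1 (2.87), Birc3 (2.76) and Nr4a1 (2.42). Egr1, an immediate early factor, had 170 UMIs in 6 AI-Exo cells and 43 in 13 PD-L1 cells. Outside cluster 0 it had 97.4 CPM in AI-Exo and 34.2 in PD-L1, from 6 UMIs each. A single AI-Exo cell held 38 of 51 UMIs of Man1a, 115 of 170 of Egr1 and 21 of 25 of Birc3. Without it the ratios were 1.40 for Man1a, 1.41 for Egr1 and 0.56 for Birc3. Another held 28 of the 50 AI-Exo UMIs of Nr4a1, whose ratio without it was 1.51.

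Genes of endothelial identity had small median ratios. Of 28 pan-endothelial genes measured in AI-Exo over PBS, 1 was higher, and of 29 in PD-L1 over PBS 7 were higher and 2 lower, beside backgrounds of 9.85%, 16.4% and 7.93%. The medians were 0.34 in AI-Exo and 0.73 in PD-L1, and outside cluster 0 they were -0.07 and 0.05. Cldn5, the main tight junction claudin of endothelium and 1 of the genes that chose the cells, had 2171 CPM in AI-Exo, 2990 in PD-L1 and 993.2 in PBS. Of the 4 Notch pathway genes measured, only Hes1 reached 2-fold against PBS in either library. In the BMP and TGF-beta list 0 of 10 measured genes reached 2-fold in AI-Exo over PBS. In PD-L1 over PBS 4 of 12 were higher and 0 lower, beside backgrounds of 16.4% and 7.93%. The medians of this list were 0.38 in AI-Exo and 0.76 in PD-L1, and outside cluster 0 they were -0.34 and 0.05. Autophagy genes, which the title of the series concerns, had 3056 CPM in AI-Exo, 2943 in PD-L1 and 2844 in PBS over 29 genes. None of 8 measured was higher or lower in AI-Exo over PBS (median 0.06), and in PD-L1 over PBS 1 of 11 was higher (Map1lc3a) and 1 lower (Sqstm1). Sqstm1, the autophagy receptor p62, had 189.1 CPM in AI-Exo [122.4, 279.1], 124.7 CPM in PD-L1 [85.3, 176.1] and 365.9 CPM in PBS [254.9, 508.9]. In PBS 26 of its 35 UMIs lay in 1 cell, and without that cell PBS had 119.4 CPM and the PD-L1 ratio was 0.058. Messenger levels do not measure autophagic flux.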

How the data were processed

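The data are 10x Genomics 3′ libraries sequenced on an Illumina NovaSeq instrument, 1 per group, per the labels' protocols. The values are raw counts of UMIs per gene and barcode, as deposited by the authors, not normalized. Per the file headers, Cell Ranger 7.1.0 wrote the matrices, but version 3.0.2 stands in the submitters' processing notes. Neither names a genome build, an annotation or the treatment of intronic reads (not given in the sources used here). Since all barcodes are in the deposited matrices, cells were taken here by the filters given in the text, and no test against empty droplets was added. Passing cells numbered 10457 in AI-Exo, 9697 in PD-L1 and 9359 in PBS, with medians of 4425, 3948 and 4380 UMIs. Mx1, Mx2 and Cxcl11 of the lists were not analysed here. Where identifiers shared a symbol, the first was used. Near-identical copies (Hspa1a and Hspa1b, Ifit3 and Ifit3b, the H2-Q genes) are uncertain, since reads can be split between them.

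UMIs were summed per library over the endothelial cells and divided by their total (CPM), with Python 3.11.15, numpy 2.4.6, scipy 1.17.1 and pandas 2.3.3. Sums carry exact Poisson and shares exact Clopper-Pearson intervals at 95%, which cover counting error only. With 1 library per group no test was possible. Genes were named if among the 8 highest or 8 lowest of a comparison with PBS, or the 4 highest or 4 lowest of AI-Exo over PD-L1, at 100 CPM or more with a UMI in at least 5 cells of the higher library, leaving out mitochondrial, ribosomal, antigen receptor, haemoglobin, sex-linked and predicted genes. Also named were the highest, the lowest and the 2 most abundant members of each list and a fixed set of vessel genes. Other list members are named where a whole count is spelled out. Clusters came from scanpy 1.11.5 (1000 variable genes, 15 components, 15 neighbours, Leiden at resolution 1). A cluster was named from at least 3 markers at 20 CPM and 2-fold over the other endothelial cells. No doublet caller was used in the main values, and a Scrublet score of 0.15 was an alternative. The size rule for calling genes was also applied to simulated Poisson sums with known folds. These sums held no single cells, so they do not cover the weight of single deep cells. The members, lists and markers were chosen with earlier results of these data known.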

Additional observations from a re-analysis of the deposited data

How the results depend on the processing

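No paired analysis was possible because each group had 1 library. The share of endothelial cells kept its order under every alternative tried, and the 16 PBS cells limit every comparison with PBS. Removing cluster 0, the 2 deepest cells of each library, the PD-L1 cell with C1qa, or the cell with most UMIs of a gene in 1 library were alternatives chosen after seeing the data. The cause of the changes below was not tested. Without a minimum of UMIs, the genes higher and lower numbered 796 and 582 in AI-Exo over PBS, 809 and 601 in PD-L1 over PBS, and 349 and 355 in AI-Exo over PD-L1, against 147 and 115, 408 and 197, and 98 and 151. Without cluster 0 they numbered 44 and 16 in AI-Exo over PBS and 205 and 47 in PD-L1 over PBS, and 34 were higher in AI-Exo over PD-L1. Without the 2 deepest cells of each library they numbered 78 and 43 in AI-Exo over PBS and 223 and 63 in PD-L1 over PBS, and 41 were higher in AI-Exo over PD-L1. Without the deepest cell 267 were higher in PD-L1 over PBS, and without cells over the Scrublet score 52 were higher in AI-Exo over PD-L1. At resolution 0.5 there were 3 clusters.

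Of the ratios and medians past 2-fold, those that changed sign under an alternative follow. Among those under 2-fold, 10 ratios and 39 medians changed sign under at least 1 alternative. Without cluster 0, AI-Exo over PBS gave -0.10 for Vwf, 1.39 for Irgm1 and -2.02 for Atp13a3, and PD-L1 over PBS gave -0.16 for H2-Aa, 3.34 for Adamts9, 0.15 for Rell1, 1.68 for Ccn1, 0.43 for Tmem252, 0.60 for Cavin3 and 0.65 for the immediate early and heat shock median. There AI-Exo over PD-L1 gave -0.32 for Man1a. Without the 2 deepest cells, AI-Exo over PBS gave 0.45 for Isg15 and 0.13 for Akap12, AI-Exo over PD-L1 gave -0.74 for Egr1 and -0.66 for Nr4a1, and the immediate early and heat shock median was 0.21 in PD-L1 over PBS. Without the deepest cell, AI-Exo over PBS gave 1.10 for Isg15 and 0.17 for the inflammatory activation median. Without the PBS cell with most Isg15 UMIs, AI-Exo over PBS gave 0.90 for Isg15. With the mean of the cells' CPM, AI-Exo over PBS gave -0.082 for Ifit3. The interferon gamma median in PD-L1 over PBS lay between 2.20 and 3.05 under every alternative.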
